A study of Mus musculus with 5 samples.

Results

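Tendon and connective tissue genes were followed as a set of 10 in RNA of the mouse forelimb bud. The set is a list of gene names grouped by known role. No measured value enters its rule, but it was drawn up with earlier results of these data known. It comprises the tendon genes Scx, Tnmd and Mkx, the connective tissue transcription factor genes Osr1, Osr2 and Tcf7l2, the small leucine-rich proteoglycan genes Dcn, Lum and Kera, and Postn, which encodes the matricellular protein periostin. All 10 were present among the 23284 gene symbols counted in each library, and all 10 passed the filter on low counts in both comparisons.

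The study sequenced rRNA-depleted total RNA from 5 libraries in 3 groups. Whole forelimb buds at E10.5, with the strain label CD1, gave 1 library. The distal forelimb at E11.5 gave 2 libraries of wild type and 2 of the double mutant Hoxa13-/-;Hoxd13-/-, for short the mutant. Both E11.5 groups carried a mixed C57BL/6 and CD1 background. The mutant alleles are constitutive insertions, a neomycin cassette in the coding part of Hoxa13 and a lacZ reporter in the first exon of Hoxd13, and each E11.5 library came from a separate pool of dissected tissue. E10.5 and E11.5 libraries differed in stage, in the part of the bud taken and in strain label at once, so these cannot be told apart. HOX13 proteins are transcription factors of the future hand and foot, and the series title places them in the reprogramming of regulatory elements as digits form.

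Tendons, ligaments and the looser connective tissue of the limb arise from the same lateral plate mesenchyme as the skeleton, while muscle cells migrate in from the somites. Scx encodes scleraxis, a bHLH transcription factor that marks tendon progenitors from early stages, and Mkx and Tnmd act as tendon cells mature. Osr1, Osr2 and Tcf7l2 mark fibroblasts of irregular connective tissue, including those around muscle, and the proteoglycans decorin (Dcn), lumican (Lum) and keratocan (Kera) bind collagen fibrils and limit their width.

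Reads assigned to genes numbered between 45115494 and 84172202 per library. Hoxd13 measured 247 and 246 CPM (counts scaled to each library's gene total) in wild type and 47.7 and 40.0 CPM in the mutant libraries, so it was lower in both libraries labelled as lacking it. Counts per gene do not show where along Hoxa13 its reads lie, so this gene does not check the labels. It measured 50.8 and 47.2 CPM in wild type and 48.0 and 39.8 CPM in the mutant. Prrx1 and Meis1 are given here as example markers of the labelled tissue, and the lists they come from are read further on. Prrx1, a homeobox gene of limb mesenchyme, measured 411 CPM at E10.5 and between 495 and 741 CPM in the E11.5 libraries. Meis1, a marker of the proximal limb, measured 107 CPM at E10.5 and between 15.2 and 21.8 CPM in the 4 distal E11.5 libraries.

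At E11.5 the early tendon regulator Scx had by far the most assigned reads per unit length of the set, and the maturation marker Tnmd the fewest. Reads of overlapping or antisense genes may be mixed into these counts. The orders given here, at both stages, are therefore orders of assigned reads and may differ from those of the transcripts. Levels between genes were compared as RPKM, the CPM divided by exon length in kilobases, with lengths of the GENCODE M21 annotation of GRCm38, which is not the build the counts were made on. Scx measured 28.2 and 32.6 RPKM in the wild-type libraries and Tnmd 0.246 and 0.357 RPKM. The next in order were Lum (mean of wild type 10.4 RPKM), Kera (9.53), Postn (8.43), Osr1 (7.83) and Mkx (7.80). Each of these neighbours overlapped the next in its wild-type values, so their order is not resolved. Dcn followed (4.77 RPKM), then Tcf7l2 (3.52) and Osr2 (3.31). Tcf7l2, at 4.37 and 2.67 RPKM, overlapped both Dcn (4.34 and 5.20) and Osr2 (2.81 and 3.81). With the longest transcript in place of all exons the order of the 10 was the same. In the E10.5 library Scx was again first (23.7 RPKM), but Osr1 (6.30), Tcf7l2 (3.90), Mkx (3.87) and Osr2 (3.27) came next, and Kera (0.0365) and Tnmd (0.0263) were last.

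**Figure D1:**
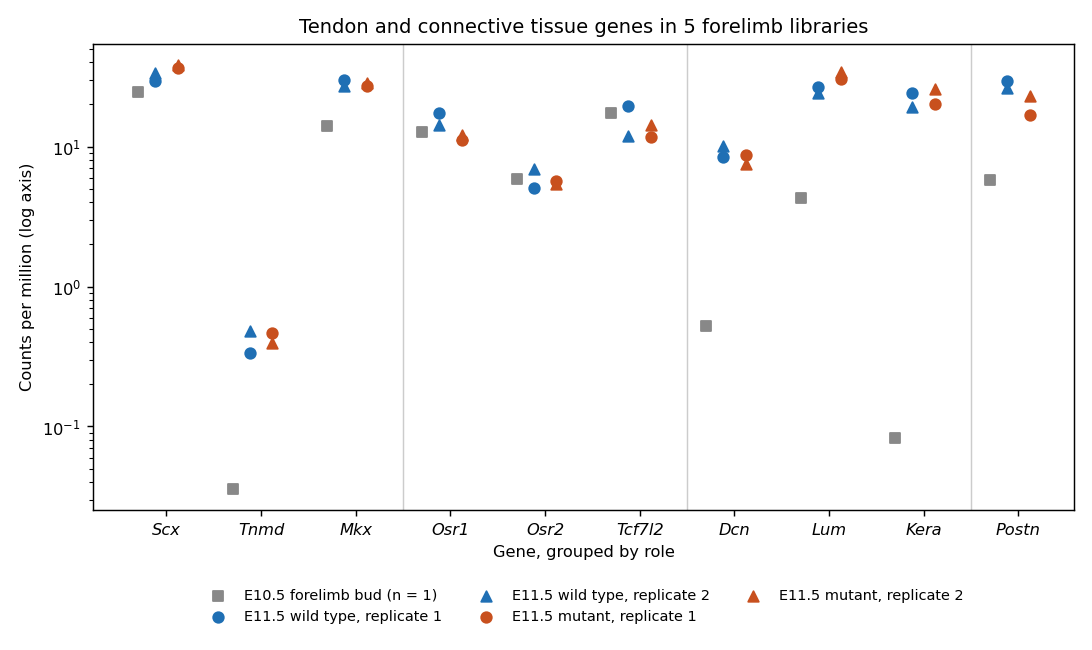
Level of each of the 10 genes in each of the 5 libraries, in CPM on a log axis, with squares for E10.5, blue for wild type and orange for mutant (circles replicate 1, triangles replicate 2). Dcn, Lum, Kera, Postn and Tnmd lie far lower at E10.5 than in the 4 E11.5 libraries, whereas the wild-type and mutant points of each gene lie close together.

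The comparison of the E10.5 bud with wild-type E11.5 distal forelimb divided the set. All 3 proteoglycan genes, Postn and Tnmd were at least 2-fold lower at E10.5 than in each wild-type library, and none of the 10 was at least 2-fold higher. The background was 12.8% of 16339 genes lower and 3.86% higher by the same rule, 16.6% in all. The 3 connective tissue transcription factor genes, Scx and Mkx stayed within 2-fold. The E10.5 group has 1 library, so there is no test, and the ratios of CPM below carry exact 95% intervals that cover counting error only. The median log2 difference (E10.5 minus the mean of wild type, after TMM scaling with a prior count of 2) was -1.41 over the 10 and -0.02 over all genes tested. The same wild-type libraries serve in the comparison of genotypes further on. In bulk RNA fewer cells of a type and less RNA per cell cannot be told apart.

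**Figure D2:**
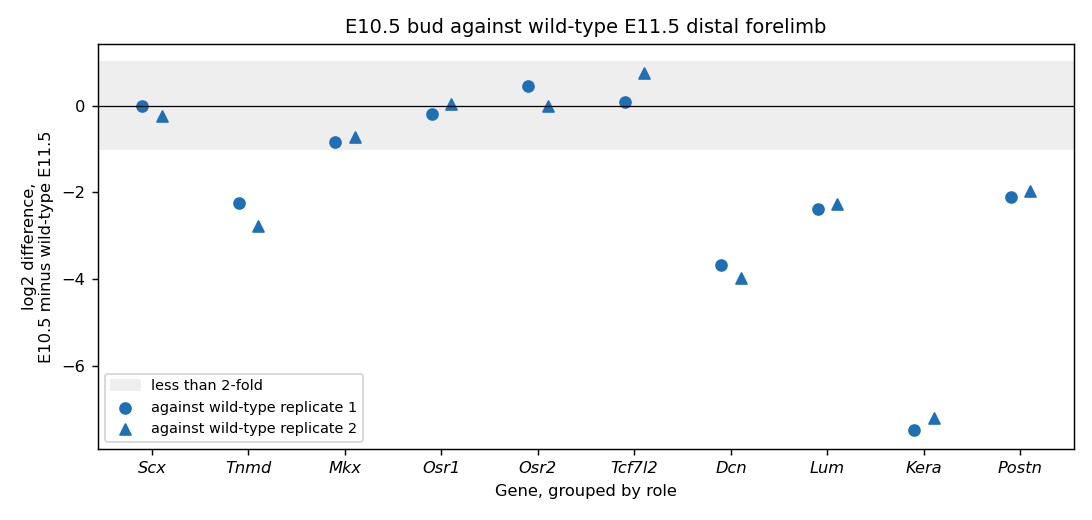
Log2 difference between the E10.5 library and each wild-type E11.5 library (circles replicate 1, triangles replicate 2), with TMM scaling and a grey band for differences under 2-fold. Tnmd, Dcn, Lum, Kera and Postn fall below the band against both libraries, with Kera lowest.

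Kera, which encodes keratocan, a keratan sulfate proteoglycan best known from the cornea, showed the largest difference of the set. It had 7 reads at E10.5 (0.0832 CPM) against 1091 and 1077 in the wild-type libraries (24.2 and 19.3 CPM), and 1197 and 1254 in the mutant libraries (20.0043 and 25.96 CPM). All 4 E11.5 libraries were thus high, the genotypes overlapped, and the E10.5 bud was close to empty of this transcript. The CPM of wild type was 258 times that of E10.5 (interval 125 to 643), and the log2 difference of E10.5 was -7.50 and -7.21 against wild-type replicates 1 and 2.

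Dcn encodes decorin, which decorates collagen I fibrils and binds growth factors of the TGF-beta family. It had 0.523 CPM at E10.5, 8.42 and 10.1 CPM in wild type and 8.64 and 7.49 CPM in the mutant. Wild type exceeded E10.5 by a CPM ratio of 17.9 (interval 13.2 to 24.8), and the genotypes overlapped. Lum, the gene of lumican, was already detectable at E10.5 with 4.29 CPM and reached 26.7 and 24.1 CPM in wild type and 30.4 and 33.9 CPM in the mutant. Its CPM ratio of wild type to E10.5 was 5.90 (5.28 to 6.60). The mutant libraries exceeded E10.5 in the same way, by CPM ratios of 272 for Kera (132 to 679), 15.5 for Dcn (11.49 to 21.56) and 7.45 for Lum (6.68 to 8.32).

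These 3 genes lie next to each other. In the RefSeq gene order of GRCm38.p6 the protein-coding genes Dcn, Lum, Kera and Epyc follow one another on chromosome 10, and Epyc encodes epiphycan, a proteoglycan of cartilage. Epyc had 0 reads at E10.5, 15 and 8 in wild type and 8 and 6 in the mutant. With a floor of 3 reads for the E10.5 library (0.0356 CPM), its CPM over both wild-type libraries (0.228) was 6.39 times that floor. This ratio is no strict bound, since it takes 23 wild-type reads as exact, and wild-type replicate 2 alone had 0.143 CPM. All 4 neighbours were therefore lower at E10.5 than in wild type, at E11.5 levels that ran from under 1 CPM for Epyc to above 19 CPM for Lum and Kera. Epyc did not pass the filter for the comparison of genotypes.

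Periostin, a secreted matrix protein of tendon, periosteum and other collagen-rich tissue, also belonged to the group that was low at E10.5. Postn measured 5.73 CPM at E10.5, 29.3 and 26.2 CPM in wild type and 16.9 and 22.9 CPM in the mutant, a CPM ratio of wild type to E10.5 of 4.82 (4.37 to 5.32). Tnmd, which encodes the membrane protein tenomodulin, had only 3 reads at E10.5 and between 15 and 28 in the E11.5 libraries. Its ratio of 11.7 rests on those few reads and has an interval of 3.73 to 58.9.

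Reads assigned to the transcription factor genes were already present in the E10.5 bud, and reads of overlapping genes may again be among them. Scx measured 24.6 CPM at E10.5 and 29.2 and 33.7 CPM in wild type. Its log2 difference was 0.00 and -0.24 against the wild-type replicates. Mkx, the homeobox gene Mohawk, measured 14.1 CPM at E10.5 and 29.9 and 27.0 CPM in wild type, with log2 differences of -0.83 and -0.72, just inside the 2-fold bound. Osr1 measured 12.7 CPM at E10.5 and 17.3 and 14.3 CPM in wild type, Osr2 5.91 CPM against 5.08 and 6.88 CPM, and Tcf7l2 17.3 CPM against 19.4 and 11.8 CPM. In CPM the E10.5 value lay between the wild-type values for Osr2 and Tcf7l2 and below both for Osr1. After TMM scaling Tcf7l2 lay above both wild-type libraries (log2 differences of 0.08 and 0.76), and Osr1 (-0.20 and 0.04) and Osr2 (0.46 and -0.01) lay between them.

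Composition scaling matters for these smaller differences. With scaling by library size alone the median of all genes moved to -0.25, and the log2 differences became -0.35 for Scx, -1.01 for Mkx, -0.31 for Osr1, -0.00101 for Osr2 and 0.19 for Tcf7l2. Relative to that median they were -0.11, -0.76, -0.06, 0.24 and 0.44, as with TMM scaling. The CPM ratios printed above carry the same shift, which their intervals do not cover. For Lum the log2 difference was -2.56 by library size and -2.33 with TMM scaling, and for Postn -2.27 and -2.04. The 5 genes past 2-fold were the same under every scaling, prior count and filter tried, and also at 3-fold.

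Markers of other cell types also differed between the E10.5 bud and wild type, and their part in these differences was not tested. By the same rule 12.8% of all genes were lower at E10.5 and 3.86% higher. Of 6 proximal limb genes 5 were higher at E10.5, with a summed level of 603 CPM against 75.6 to 110 CPM in wild type. Of 10 cartilage genes 5 were lower and 1 higher (367 CPM summed against 635 to 659), and of 8 muscle genes 3 were lower and 2 higher (36.6 against 82.9 to 95.2). Of 6 macrophage genes 5 were lower (11.9 against 41.0 to 50.6), and of 6 neuron and Schwann cell genes 3 were lower (24.8 against 63.7 to 64.5). Of 8 distal limb genes 5 were lower, Hoxa13 and Hoxd13 among them, and 0 higher (398 against 767 to 836). The other lists moved less by this rule, with 1 of 6 endothelial genes higher, 1 of 7 surface ectoderm genes lower and 0 of 5 limb mesenchyme genes past 2-fold.

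RefSeq promoter windows were at hand for 4 of the 10 genes, and the 250 bases before the start are shown for Kera, Tnmd and Postn, which were low at E10.5, and for Tcf7l2, which was not. Coordinates are those of GRCm38.p6, every window is on the plus strand and reads 5′ to 3′, and capitals mark a TATA box (TATAAA).
Kera chr10:97606955-97607204: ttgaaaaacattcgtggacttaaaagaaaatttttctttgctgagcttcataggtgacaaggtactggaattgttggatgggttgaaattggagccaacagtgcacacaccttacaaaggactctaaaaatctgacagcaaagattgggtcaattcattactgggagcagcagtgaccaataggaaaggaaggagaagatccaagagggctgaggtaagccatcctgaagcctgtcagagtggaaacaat
Tnmd chrX:133850758-133851007: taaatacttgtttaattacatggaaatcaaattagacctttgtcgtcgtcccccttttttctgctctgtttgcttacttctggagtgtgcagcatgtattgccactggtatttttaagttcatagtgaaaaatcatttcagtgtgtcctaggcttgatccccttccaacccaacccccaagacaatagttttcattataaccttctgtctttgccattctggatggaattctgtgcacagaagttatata
Postn chr3:54360857-54361106: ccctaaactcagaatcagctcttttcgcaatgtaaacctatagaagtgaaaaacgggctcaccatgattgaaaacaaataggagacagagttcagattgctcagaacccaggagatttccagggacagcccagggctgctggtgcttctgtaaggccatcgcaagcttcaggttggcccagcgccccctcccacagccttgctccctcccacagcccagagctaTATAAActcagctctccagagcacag
Tcf7l2 chr19:55741560-55741809: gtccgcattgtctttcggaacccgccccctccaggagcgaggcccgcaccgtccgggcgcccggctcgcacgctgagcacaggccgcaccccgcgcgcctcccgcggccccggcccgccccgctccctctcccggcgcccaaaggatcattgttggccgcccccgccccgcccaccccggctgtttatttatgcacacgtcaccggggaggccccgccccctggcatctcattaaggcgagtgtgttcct

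The windows differed in base composition. G and C made up 42.4% of the Kera window, 38.4% of the Tnmd window and 52.0% of the Postn window, and 72.8% of the Tcf7l2 window, against a median of 52.4% over all RefSeq promoter windows. The table held a second start for Postn, upstream of the one shown (40.4% G and C), and for Tcf7l2, downstream (40.8%). The motif TATAAA, searched on both strands, stood 26 bases before the start of the Postn window shown, and it occurs in 12.4% of 32851 windows. The second Tcf7l2 window held it 242 bases before the start. The E-box CANNTG, the general motif of bHLH factors such as scleraxis, was in none of the 6 windows of these genes and is in 66.2% of all windows. The motifs CAATAAA and TCGTAAA, bound by HOX13 proteins in vitro, were in none of the 6 and are in 4.2% and 0.478% of all windows. A missing match says only that these letters are not in that window.

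Between mutant and wild type at E11.5 no gene of the set passed the threshold. None of the 10 rose or fell at an adjusted p below 0.05 in the edgeR quasi-likelihood test, where 7.16% of 16166 genes did (3.82% rose and 3.34% fell). At an unadjusted p below 0.05 there were 3 of the 10 against 19.4% of all genes, namely Lum higher (9.79% of all genes) and Osr1 and Postn lower (9.58%), and DESeq2 called 1, Postn. The log2 fold changes (mutant over wild type) ran from -0.50 for Postn to 0.32 for Lum with a median of -0.10, beside a median of -0.000819 over all genes. Both mutant libraries lay above both wild-type libraries for Scx and Lum (26.6% of all genes) and below them for Osr1 and Postn (22.9%). These are 4 of 10 against 49.5% of all genes, so a lack of overlap is no result about these genes.

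**Figure D3:**
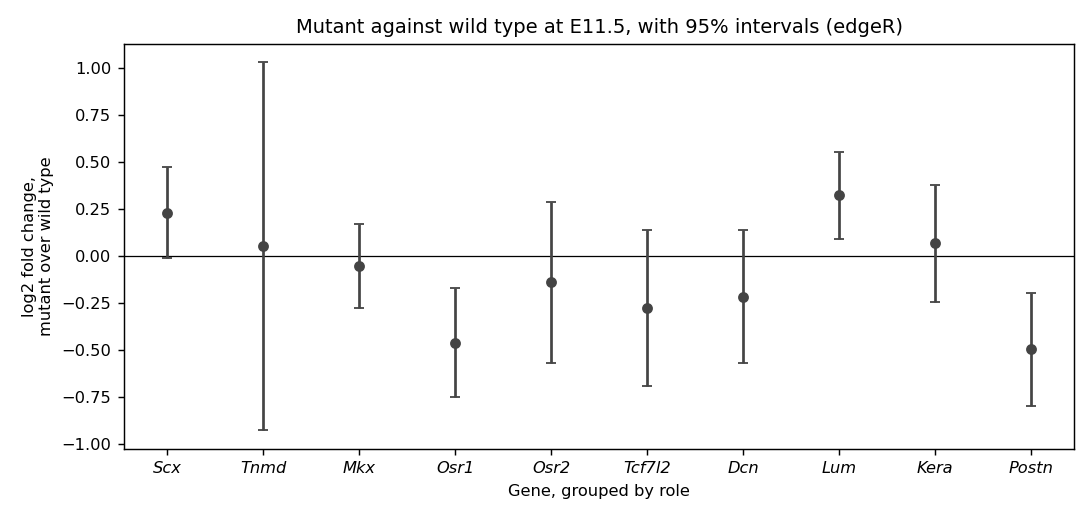
Log2 fold change of each gene, mutant over wild type at E11.5, from the edgeR fit, with 95% intervals that are not adjusted for the number of genes. The intervals of Osr1 and Postn lie below 0 and that of Lum above it, while the interval of Tnmd is the widest.

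Among the tendon genes Scx measured 29.2 and 33.7 CPM in wild type and 36.6 and 38.1 CPM in the mutant. The mutant values were higher without overlap, but the difference was small, with a log2 fold change of 0.23 (SE 0.11, 95% interval -0.01 to 0.47, adjusted p = 0.279). Without wild-type replicate 2, the wild-type library closer to the mutant, it was 0.37 and passed the threshold (adjusted p = 0.0397), and without wild-type replicate 1 it was 0.11 (adjusted p = 0.593). Mkx measured 29.9 and 27.0 CPM in wild type and 27.0 and 28.3 CPM in the mutant. The genotypes overlapped, with a log2 fold change of -0.05 and the narrowest interval of the 10, -0.28 to 0.17 (adjusted p = 0.844). Tnmd, at 0.333 and 0.484 CPM in wild type and 0.468 and 0.393 CPM in the mutant, was too sparse to resolve, since its interval ran from -0.93 to 1.03.

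Of the connective tissue transcription factors, all 3 had log2 fold changes below 0. Osr1, an odd-skipped zinc finger gene, measured 17.3 and 14.3 CPM in wild type and 11.1 and 12.1 CPM in the mutant. Both mutant libraries lay below both wild-type libraries, with a mean of 11.6 ± 0.723 CPM (SD, n = 2) against 15.8 ± 2.13. The log2 fold change was -0.46 (SE 0.13, interval -0.75 to -0.17), and the adjusted p of 0.0618 missed the threshold. It passed without wild-type replicate 2 (-0.57, adjusted p = 0.0141) and without the filter on low counts (0.0199), and over all alternatives it lay between 0.0141 and 0.334.

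Osr2, the paralogue of Osr1, measured 5.08 and 6.88 CPM in wild type and 5.65 and 5.36 CPM in the mutant, so the mutant libraries lay between the wild-type ones. Its log2 fold change was -0.14 (SE 0.20, interval -0.57 to 0.29, adjusted p = 0.78). The sign of Osr2 turned with the wild-type library left out, from -0.36 with replicate 1 removed to 0.13 with replicate 2 removed. Tcf7l2, a transcriptional effector of WNT signalling, measured 19.4 and 11.8 CPM in wild type and 11.7 and 14.2 CPM in the mutant. Wild-type replicate 1 alone stood high, and the log2 fold change of -0.27 (SE 0.19, adjusted p = 0.495) became 0.09 without it and -0.57 without wild-type replicate 2 (adjusted p = 0.0158).

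The proteoglycan genes, so different between the E10.5 bud and wild type, did not pass the threshold between genotypes. Lum measured 26.7 and 24.1 CPM in wild type and 30.4 and 33.9 CPM in the mutant, without overlap. Its log2 fold change was 0.32 (SE 0.11, interval 0.09 to 0.56, adjusted p = 0.0968), and it passed the threshold only without wild-type replicate 1 (0.37, adjusted p = 0.0449) among the 10 alternatives. Dcn had -0.21 (SE 0.16, interval -0.57 to 0.14, adjusted p = 0.544) and Kera 0.07 (SE 0.14, interval -0.24 to 0.38, adjusted p = 0.86), both with overlapping genotypes. That of Dcn was -0.36 with wild-type replicate 1 left out and -0.04 with replicate 2 left out. Kera had 0.24 with mutant replicate 1 left out and -0.12 with replicate 2 left out. The direction for Kera is therefore not set by these libraries.

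Postn came closest to a call. It measured 29.3 and 26.2 CPM in wild type and 16.9 and 22.9 CPM in the mutant, a mean of 27.7 ± 2.15 CPM (SD, n = 2) against 19.9 ± 4.20. Both mutant libraries were lower, and mutant replicate 1 the lowest of the 4. The log2 fold change was -0.50 (SE 0.14, interval -0.80 to -0.19, adjusted p = 0.0521), or 0.71 of the wild-type level. Postn passed the threshold in 7 of 10 alternatives, among them DESeq2 (0.0258), the newer quasi-likelihood estimate of edgeR (0.0488) and the fit with a replicate block (0.032). Without mutant replicate 1 its log2 fold change was -0.30 and the adjusted p 0.472, while the fit lacking mutant replicate 2 gave -0.72 and 0.00154. The size of the Postn difference thus depended on 1 mutant library.

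Other genes of tendon formation and of the collagen matrix included several that passed the threshold. Of 24 tendon regulators and matrix genes 4 rose, all of them collagen genes, where 3.82% of all genes rose. Col6a3 (collagen VI, which forms a beaded network around cells) measured 42.2 ± 12.5 CPM (SD, n = 2) in wild type and 103 ± 1.65 in the mutant, a rise of 1.28 on the log2 scale (SE 0.15, adjusted p = 0.000203), and Col6a1 rose by 0.70 on the log2 scale. The collagen I genes Col1a1 (1.02) and Col1a2 (0.48) rose as well, and these are the fibrils that decorin and lumican bind. The other collagen genes of the list did not pass the threshold. Among these, Col6a2 of collagen VI had a log2 fold change of -0.007 (adjusted p = 0.987). Col3a1 had 0.11, Col5a1 0.02, Col5a2 -0.06, Col12a1 0.49 and Col14a1 0.27. A rise was therefore not shared by every collagen gene of the list. DESeq2 gave Col1a1 an adjusted p of 0.1 and the fit without wild-type replicate 2 a log2 value of 0.67, and Col1a2 had an adjusted p of 0.133 without mutant replicate 1. The median of the list was 0.03. Leaving out either wild-type replicate raised the count of changed genes in this list, and it raised the count over all genes as well.

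**Figure D4:**
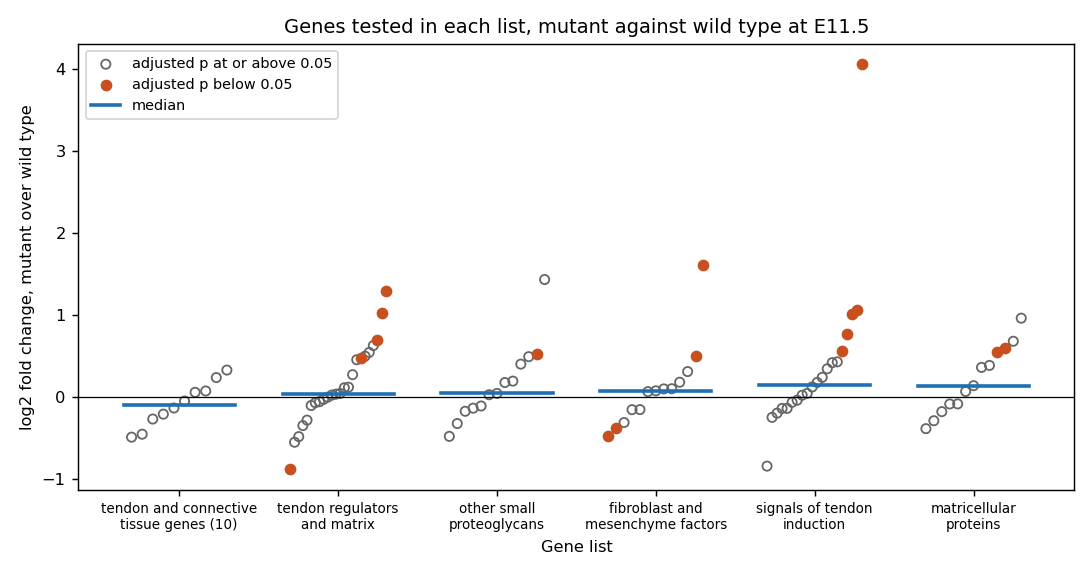
Log2 fold change, mutant over wild type, of every gene tested in the set of 10 and in 5 related lists, with filled points for an adjusted p below 0.05 and a bar at each list's median. The set of 10 has no filled point and spans -0.50 to 0.32, and the highest point of the other lists is Fgf4 at 4.06.

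Among 13 other small leucine-rich proteoglycans tested 1 rose and 0 fell, with a median of 0.04. That share is near the 7.16% of all genes called and is no result about the family. The gene was Bgn, which encodes biglycan, the closest relative of decorin. It rose from 10.6 ± 0.579 CPM (SD, n = 2) to 15.3 ± 0.533 (log2 fold change 0.52, SE 0.13, adjusted p = 0.0274), but its adjusted p was 0.203 with mutant replicate 1 left out and 0.0791 with mutant replicate 2 left out. The count over this list was 0 without mutant replicate 1 and 2 without wild-type replicate 2. At unadjusted p below 0.05 there were 2 higher and 1 lower, beside 9.79% and 9.58% of all genes.

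Of 13 matricellular genes tested 2 rose and 0 fell (median 0.13), where 3.82% of all genes rose and 3.34% fell. The 2 were Sparcl1 (0.59, adjusted p = 0.0201) and Smoc1 (0.54, adjusted p = 0.0085), both encoding secreted calcium-binding proteins of the SPARC family. Without mutant replicate 1 neither passed (0.212 and 0.0933) and Sparcl1 had 0.37. Tgfbi, the paralogue of Postn, went the other way from Postn without passing the threshold (0.38, SE 0.11, adjusted p = 0.0521), and was named after its value was seen. Of 13 limb fibroblast and mesenchyme factors tested Prrx1 (0.49) and Ebf2 (1.60) rose and Twist1 (-0.48) and Prrx2 (-0.39) fell, with a median of 0.07. All 4 encode transcription factors, and 4 of 13 stand beside 7.16% of all genes called. The call of Twist1 ended without mutant replicate 2 (adjusted p = 0.108), and that of Prrx2 ended without either mutant replicate (0.0626 and 0.294).

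Of 20 genes of signals that act on tendon progenitors 5 rose, 0 fell and 15 did not pass the threshold (median 0.15). Over all genes tested 3.82% rose and 3.34% fell, and this list was chosen with earlier results of these data known. Of the 20, 7 had log2 values below 0. At an unadjusted p below 0.05 there were 8 higher and 2 lower (9.79% and 9.58% of all genes). Tgfb2, which encodes a TGF-beta ligand, rose from 21.1 ± 1.73 CPM (SD, n = 2) to 42.9 ± 0.124 (log2 fold change 1.01, SE 0.10, adjusted p = 8.29e-05). Tgfbr3, the co-receptor betaglycan, rose by 0.56 on the log2 scale. The ridge ligands Fgf4 (4.06) and Fgf8 (1.06) and the FGF-induced phosphatase gene Dusp6 (0.76) rose too. Tgfbr1 and Tgfbr2, the signalling receptors, had fold changes near 1 (log2 0.02 and 0.04, adjusted p 0.949 and 0.891), and were named after their values were seen. Without wild-type replicate 2 more genes of this list passed the threshold, and so did more of all genes. The ETS factor genes Etv4 and Etv5 were then among those called lower. Mstn, which encodes myostatin, was called lower without wild-type replicate 1 and without the filter on low counts (-0.85 and adjusted p = 0.135 with all libraries).

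The related lists also differed between the E10.5 bud and wild type, in both directions. Over all genes 12.8% were lower at E10.5 and 3.86% higher. Of 24 tendon regulators and matrix genes 7 were at least 2-fold lower and 2 higher at E10.5, with Six2, a homeobox gene of limb tendons, at 0.297 CPM against 6.52 and 6.45 CPM in wild type. Chodl, Comp and Cilp were lower too, each below 1 CPM in all 5 libraries. Of 14 other small proteoglycans 5 were lower and 1 higher. Podn (0.0832 CPM against 2.39 and 1.003), Fmod (0.606 against 3.37 and 4.24), Prelp and Epyc were lower. Omd, which encodes osteomodulin, was the one that was higher, with 37.6 CPM at E10.5 against 11.6 and 9.06 CPM in wild type, and it was named after its value was seen. A lower level at E10.5 was therefore not shared by every gene of that family.

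Of 13 matricellular genes 6 were lower at E10.5 and 0 higher, beside 12.8% and 3.86% of all genes. Among the 6 were Tnc, the tenascin-C gene of developing tendon (5.19 CPM against 62.9 and 46.9), Smoc2 (3.66 against 35.2 and 34.9), Sparcl1 and Tgfbi. Of 13 limb fibroblast factors Ebf1 (6.39 CPM against 48.3 and 56.7), Hic1 and Meox2 were lower and Lmx1b, a gene of dorsal limb identity, was higher. Of 20 signal genes Gdf5 (1.89 CPM against 12.2 and 15.8), a joint signal, and Fgf18 were lower, and Fgf4 (4.85 against 0.510 and 0.358) and Fgf8 (32.8 against 11.6 and 9.13) were among 3 that were higher.

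Levels of other cell types also differed between the genotypes at E11.5, and their part in the values of the 10 genes was not tested. Over all genes tested 3.82% rose and 3.34% fell. The summed level of 8 muscle genes was 53.9 to 68.7 CPM in the mutant and 82.9 to 95.2 CPM in wild type, with 2 fallen and 0 risen. Of 6 neuron and Schwann cell genes 3 fell (summed level 25.95 to 28.3 CPM against 63.7 to 64.5), and of 6 macrophage genes 2 rose (62.2 to 63.9 against 41.0 to 50.6). The 10 cartilage genes summed to 795 to 814 CPM in the mutant and 635 to 659 CPM in wild type, with 1 risen and 1 fallen. Of 6 endothelial genes 0 changed (190 to 211 CPM against 172 to 182), and of 7 surface ectoderm genes 2 fell (272 to 290 against 288 to 301). No marker of these lists was at 0 in every library. The summed level of the 6 proximal limb genes overlapped between genotypes (89.2 to 96.4 CPM in the mutant, 75.6 to 110 in wild type). None of them passed the threshold, and Irx5 alone had both mutant libraries below both wild-type libraries (1.45 and 1.08 CPM against 2.31 and 1.84). Of all genes 22.9% lay below in this way, so this is no result about the list. Of 8 distal limb genes 5 fell and 1 rose (summed level 461 to 549 CPM against 767 to 836). This list holds Hoxa13 and Hoxd13, the genes disrupted in the mutant, so its sum does not stand for distal tissue alone. Hoxd13 by itself measured 247 and 246 CPM in wild type and 47.7 and 40.0 CPM in the mutant. Hoxd13 itself, Evx2 (-4.52), Tfap2b (-1.19), Msx1 (-0.84) and Lhx9 (-0.42) fell, and Sall1 (0.84) rose. Of 5 limb mesenchyme genes 1 rose and 2 fell (1686 to 1699 CPM against 1433 to 1495).

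Over the 5 libraries the genes most like Scx in profile were 4932415G12Rik, Elovl4, which encodes a fatty acid elongase, and 1810063B07Rik. Likeness was the Euclidean distance between log2 CPM profiles after each gene's own mean was taken off, compared over 16737 other genes, and these had distances of 0.043, 0.0562 and 0.0748. For Osr1 they were Ihh (0.0827), 1500015A07Rik (0.0979) and St6galnac5 (0.103), and for Dcn Gadl1 (0.172), Olfr1033 (0.261) and Synpo2l (0.304). Ihh, Gadl1 and Olfr1033 measured at most 0.519 CPM in any library. Within the set, the nearest pair was Osr1 and Tcf7l2 (0.522) and Kera stood apart, at 3.33 from Dcn and 7.10 from Tcf7l2. With 5 libraries such distances describe these samples only.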

How the data were processed

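The authors deposited raw counts of reads per gene symbol, 1 table per library, made with HTSeq. Per the submitters' processing notes, the other tools were TopHat2 2.0.13, Cufflinks 2.1.1 and SAMtools, with the mm9 genome. The annotation and the strand setting of the counting are not given in the sources used here, so reads of overlapping and antisense genes may be mixed. Totals and tests use gene rows only, without the 5 HTSeq summary lines. Reads in no feature made up 24.3% to 39.6% of the sum over all lines, and reads without a unique alignment 9.1% to 14.8%.

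Mutant and wild type were compared with edgeR 4.0.16 in R 4.3.3 over the 4 E11.5 libraries (filterByExpr, minimum count 10, minimum total 15; TMM scaling; quasi-likelihood F test with genotype as the only term). P-values were adjusted by Benjamini-Hochberg over all genes tested, and genes are said to rise or fall at an adjusted p below 0.05. The 2 libraries of a group came from separate pools. Printed CPM values are scaled to library size only. The E10.5 library (no replicate, no p-value) was called different when it differed at least 2-fold, in 1 direction, from each wild-type library. The code was tested on simulated data with known changes. All 10 members were named whether called or not. From the 5 related lists the genes past the threshold were named (at most 8 per list), and for E10.5 at most 4 per list by size. A result of 1 gene of these lists is not reported here. The members and lists were chosen with earlier results of these data known. Alternatives were DESeq2 1.42.0, other scaling, no filter, the newer edgeR estimate, a replicate block and leaving out each replicate.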

Additional observations from a re-analysis of the deposited data

How the results depend on the processing

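Without the filter on low counts 1762 genes changed in place of 1157, with 2 of the 10 tendon and connective tissue genes (Osr1 and Postn), 8 tendon regulators and matrix genes, 8 signals of tendon induction and 4 matricellular proteins. DESeq2, the newer quasi-likelihood estimate and the replicate block each called 1 of the 10, Postn, and scaling by DESeq2's size factors or by library size alone called 0. Leaving out each E11.5 replicate in turn gave from 796 (without mutant replicate 1) to 2018 (without wild-type replicate 1) changed genes and from 0 to 4 of the 10, where the 4 were Osr1, Postn, Scx and Tcf7l2 without wild-type replicate 2. The same fits gave 5 to 9 tendon regulators and matrix genes, 0 to 2 other small leucine-rich proteoglycans, 5 to 9 signals and 0 to 3 matricellular proteins. The cause of these shifts was not tested. For the 17 called genes of the related lists, 161 of 170 values under the alternatives kept their call and direction, 8 lost the call without a replicate, 1 lost it in DESeq2, and 0 reversed. The count of 5 genes past 2-fold at E10.5 was the same in all alternatives except 1.5-fold, which gave 6.

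The replicate numbers are shared by the genotypes, but nothing ties equal numbers to 1 litter or day, and deviations of equally numbered libraries correlated at -0.0775 over genes. The replicate block changed 1252 genes and, among the 10, only the call of Postn. Depth limits Tnmd most, with at most 28 reads per library.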
